A study of Mus musculus with 6 samples.

Results

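The smooth muscle contractile genes described here are 10 of the 24940 genes in an exon count table of cultured mouse hepatic stellate cells, chosen by name: the actins Acta2 and Actg2, the actin-binding proteins Tagln, Cnn1 and Cnn2, the myosin light chain Myl9, the tropomyosins Tpm1 and Tpm2, the intermediate filament protein Des and the adhesion protein Vcl. All 10 symbols were found once each, and 8 of the 10 had enough counts to be tested. In cells given OCA before VIP, Acta2, Tagln and Des fell, Vcl rose, and Tpm1, Tpm2, Cnn2 and Myl9 did not pass the test. Cnn1 had 12 counts in all and Actg2 had none.

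Hepatic stellate cells are pericytes of the liver sinusoid that store vitamin A and, when they become myofibroblasts, acquire actin stress fibres and contract. Contraction is driven by myosin acting on actin filaments when the regulatory light chain is phosphorylated, with tropomyosin, calponin and transgelin lying along the filaments, vinculin tying them to adhesions and desmin forming a separate filament network. Many of these genes are classical targets of serum response factor (SRF), which binds a sequence called the CArG box, and Acta2 is the usual marker of stellate cell activation.

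The cells came from wild-type female C57BL/6JBomTac mice, whose age the labels do not give, and were treated on day 2 of culture. The OCA+VIP group received 10 µM obeticholic acid (OCA), an agonist of the bile acid receptor FXR, for 3 h and then 500 nM VIP as well, for 3 h more. VIP is the vasoactive intestinal peptide, which acts through receptors that raise cAMP. The DMSO+VIP group received the OCA vehicle DMSO (1:1000) in the same volume and then the same VIP. Each group had 3 libraries of polyadenylated RNA, numbered here as the table's columns are, and VIP was present in all 6. The comparison is therefore of OCA with vehicle in VIP-treated cells, and no library without VIP was analysed here. Whether replicate libraries are separate animals or cultures is not given in the labels, so p-values here rest on a spread that may be purely technical.

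Column totals were 4.53e+06 to 9.95e+06 counts in OCA+VIP libraries and 2.84e+06 to 4.57e+06 counts in DMSO+VIP libraries, and OCA+VIP library 2 was the deepest. Many low counts fell on a step. Of counts above 0 and up to 30, those within 0.5 of a multiple of 6 made up 37.5% to 56.7% in OCA+VIP and 56.3% to 58.2% in DMSO+VIP. Here 0 was taken as a multiple, so counts of 0.5 were included. The share within 0.5 of a multiple of 3 was 65.4% to 84.6% in OCA+VIP and 82.9% to 87.5% in DMSO+VIP. Evenly spread counts would also fall near such multiples in part, more often for 3 than for 6, and that part was not subtracted. Taking the wider step of 6, 18 counts over a group (3 steps) served as the upper limit for a gene with no counts, covering counting error only. This floor was 0.887 CPM (counts per 1000000 of the column total) in OCA+VIP and 1.61 CPM in DMSO+VIP. All 14 stellate cell markers on the list used here were detected above a mean of 1 CPM, with summed levels of 1031 to 1169 CPM in OCA+VIP and 847 to 1158 CPM in DMSO+VIP. Of 8 markers of vascular smooth muscle, Lmod1, Rergl and Actg2 were at 0 in all 6 libraries and Cnn1 and Pln averaged under 1 CPM, while Myh11, the smooth muscle myosin heavy chain, had 27 counts in OCA+VIP and 18 in DMSO+VIP. The summed level of this smooth muscle list was 308 to 425 CPM in OCA+VIP and 563 to 587 CPM in DMSO+VIP, and Acta2 and Tagln were its only members with enough counts to test.

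The 8 tested genes were called with edgeR's quasi-likelihood test fitted on 11286 genes, with Benjamini-Hochberg adjustment over all of them and a threshold of 0.05. Of the 8, 3 were lower and 1 was higher in OCA+VIP, where the same test called 6.04% of all tested genes lower, 5.72% higher and 11.8% in either direction. The median log2 fold change of the 8 was -0.43, against 0.001 over all tested genes, and 7 of the 8 estimates were negative. In 5 of the 8 the CPM of the groups did not overlap, 4 lower and 1 higher. Over all tested genes 30.6% did not overlap, 13.9% lower and 16.8% higher. Summed over the 10 genes, the level was 1342, 1149 and 1365 CPM in OCA+VIP libraries 1 to 3 and 1523, 1593 and 1520.3 CPM in DMSO+VIP libraries 1 to 3. The sums did not overlap, although the larger part of them, 62.8% to 69.8% in OCA+VIP and 69.0% to 73.8% in DMSO+VIP, came from Tpm1 and Tagln alone.

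**Figure D1:**
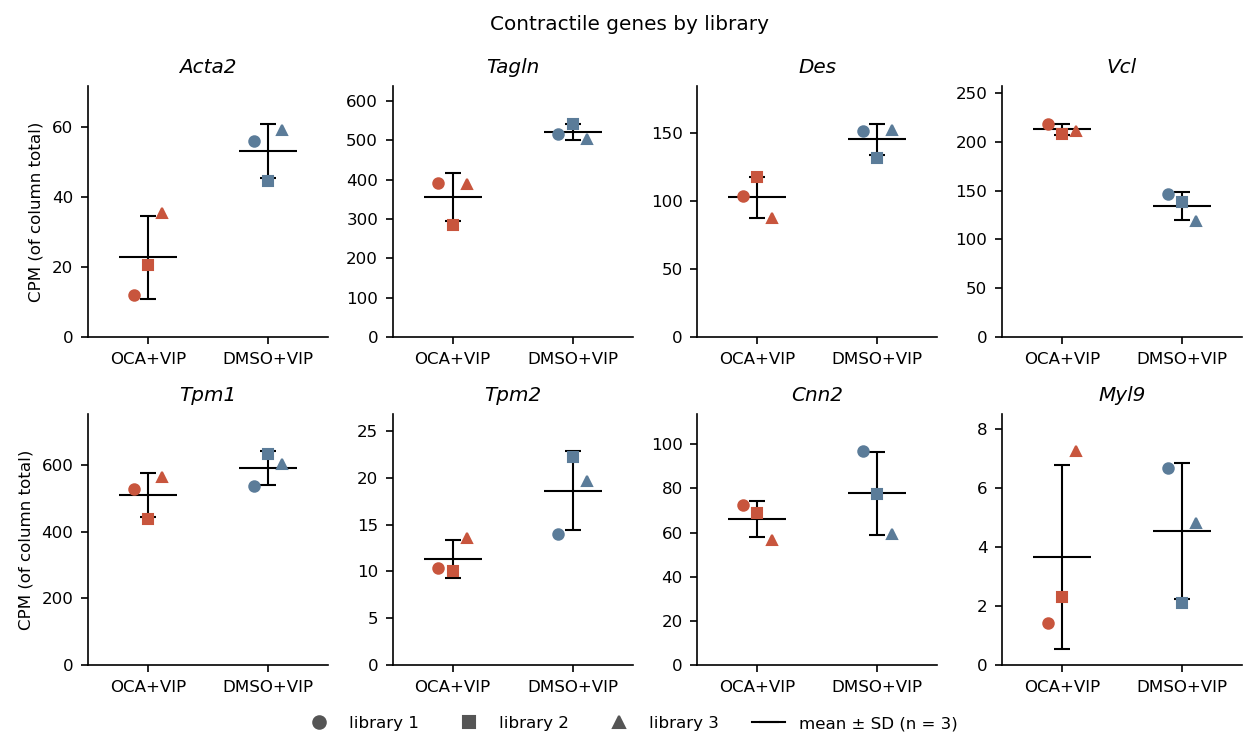
CPM of the 8 tested contractile genes in each library, with OCA+VIP left and DMSO+VIP right in each panel. Points are libraries, bars are the mean and SD of 3 libraries, and each vertical axis starts at 0. Acta2, Tagln, Des and Tpm2 lie lower in every OCA+VIP library than in any DMSO+VIP library and Vcl lies higher, while Tpm1, Cnn2 and Myl9 overlap.

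Acta2, which encodes the alpha actin of smooth muscle (chromosome 19, 34240336 to 34255373, mm10), had 12.1, 20.7 and 35.6 CPM in OCA+VIP libraries 1 to 3 and 56.0, 44.6 and 59.3 CPM in DMSO+VIP libraries 1 to 3. Every OCA+VIP library lay below every DMSO+VIP library, and the OCA+VIP libraries also differed from each other by more than the DMSO+VIP libraries did. The means were 22.8 ± 11.9 CPM in OCA+VIP and 53.3 ± 7.75 CPM in DMSO+VIP (SD, n = 3 each), and Acta2 was 2.34-fold lower in OCA+VIP by these means. Its log2 fold change was -1.24 (SE 0.27, 95% interval -1.81 to -0.68, edgeR adjusted p = 0.0041), the largest in size among the 8 tested members. The fall passed the test without any 1 library, with estimates of -0.98 when OCA+VIP library 1 was left out and -1.70 when OCA+VIP library 3 was. In bulk RNA, fewer cells that express a gene and less RNA per cell cannot be told apart.

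Acta2 and Vcl moved in opposite directions, and their promoters are shown because both genes belong to the SRF target class. Sequences are those of RefSeq on GRCm38, from 250 bases before to 50 bases after the start used by the counted transcript. The windows are chr19:34255324-34255623 on the minus strand for Acta2 and chr14:20929148-20929447 on the plus strand for Vcl. Capitals mark matches to the CArG box, exact or with 1 letter off, searched on both strands (the pattern is its own reverse complement).
Acta2: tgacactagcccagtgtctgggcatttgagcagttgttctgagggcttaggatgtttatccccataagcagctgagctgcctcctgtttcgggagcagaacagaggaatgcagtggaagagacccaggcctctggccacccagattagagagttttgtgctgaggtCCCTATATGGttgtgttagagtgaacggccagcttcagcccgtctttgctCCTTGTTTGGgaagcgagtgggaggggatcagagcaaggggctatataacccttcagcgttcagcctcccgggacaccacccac
Vcl: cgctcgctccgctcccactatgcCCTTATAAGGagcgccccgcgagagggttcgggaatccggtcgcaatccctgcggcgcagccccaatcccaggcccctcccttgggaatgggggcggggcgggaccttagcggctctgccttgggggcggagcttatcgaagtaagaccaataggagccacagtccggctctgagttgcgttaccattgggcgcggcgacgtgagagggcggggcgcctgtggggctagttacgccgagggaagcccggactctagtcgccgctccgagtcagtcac
The Vcl window held 1 exact CArG box, CCTTATAAGG, which ends 217 bases before the start. The Acta2 window held no exact match and 2 matches with 1 letter off, CCCTATATGG and CCTTGTTTGG, which end 74 and 24 bases before the start. Promoters of 8 members were in the table used, without Tagln and Actg2. Exact matches were also found for Cnn2 (CCTTATAAGG, 46 bases before the start) and Myl9 (CCTAATAAGG, 151 bases before the start), so 3 of 8 member windows (37.5%) held an exact CArG box, against 1.63% of all 32851 promoter windows. Counting matches with 1 letter off, 5 of 8 member windows (62.5%) and 21.1% of all windows held a match. Of the 3 members with an exact match, 1 rose and 2 did not pass the test. Of the 5 others with a window, Acta2 and Des fell, Tpm1 and Tpm2 did not pass and Cnn1 was not tested. A match describes letters only.

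Actg2, the enteric smooth muscle gamma actin, had a count of 0 in all 6 libraries, which allows up to 0.887 CPM in OCA+VIP and 1.61 CPM in DMSO+VIP. Acta2 was also a small part of the actin RNA. Per kb of exon, it averaged 8.90 ± 4.63 CPM in OCA+VIP and 20.8 ± 3.02 CPM in DMSO+VIP, where the cytoplasmic actins Actb and Actg1 averaged 424 ± 79.5 and 230.2 ± 36.1 CPM per kb in OCA+VIP and 487 ± 19.7 and 245 ± 3.61 CPM per kb in DMSO+VIP. The share of Acta2 in the summed per-kb level of 6 actins was 0.606%, 1.45% and 2.12% in OCA+VIP and 2.99%, 2.27% and 3.05% in DMSO+VIP. These shares did not overlap either. They use the deposited exon length of Acta2, 2561 bases, where its transcript in GENCODE has 2035. An exact two-sided permutation test over the 6 libraries gave p = 0.10, the smallest that 3 against 3 can give, and 0.30 adjusted over the 3 paralog shares tested. Actb and Actg1 did not pass the edgeR test (log2 fold changes -0.20 and -0.10). Only 0.352% of the 50-base stretches of the Acta2 transcript in GENCODE occur in transcripts of other genes, among them Actg1.

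Tagln encodes transgelin (SM22), an actin-binding protein of smooth muscle (chromosome 9, 45929628 to 45936058). It had 393, 285 and 388 CPM in OCA+VIP libraries 1 to 3 and 516, 542 and 503 CPM in DMSO+VIP libraries 1 to 3. The groups did not overlap, and OCA+VIP library 2 was the lowest. The means were 355 ± 60.7 CPM in OCA+VIP and 520.2 ± 20.3 CPM in DMSO+VIP (SD, n = 3 each), and the log2 fold change was -0.56 (SE 0.14, 95% interval -0.85 to -0.26, edgeR adjusted p = 0.012). The call was lost without DMSO+VIP library 1 or 2, with log2 fold changes of -0.58 and -0.52 and edgeR adjusted p = 0.0501 and 0.055. In GENCODE, Pcsk7 and Gm48529 on the opposite strand overlap 61.8% of the exon bases of the Tagln transcript, and whether reads were counted by strand is not stated, so reads of these genes cannot be told apart there. Pcsk7, a proprotein convertase gene, had 78.3 ± 5.47 CPM in OCA+VIP and 64.0 ± 5.95 CPM in DMSO+VIP (log2 fold change 0.28, edgeR adjusted p = 0.27). Per kb, Pcsk7 lay at 19.3 ± 1.35 CPM in OCA+VIP and 15.8 ± 1.47 CPM in DMSO+VIP, where Tagln lay at 225 ± 38.4 CPM in OCA+VIP and 329 ± 12.9 CPM in DMSO+VIP. The counted Pcsk7 transcript (45906569 to 45929722) meets Tagln only at its end, so its CPM do not measure reads over the whole overlap.

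The 2 calponins, which bind actin and restrain myosin, differed in level. Cnn1, the smooth muscle form (chromosome 9, 22099253 to 22109221), had 6, 0 and 6 counts in OCA+VIP libraries 1 to 3 and 0 in each DMSO+VIP library. Both groups lie under the floor of 18 counts, so no fold is given and a difference was not detectable at this depth. Cnn2, the form found in many non-muscle cells (chromosome 10, 79988600 to 79995400), had 72.3, 69.0 and 56.8 CPM in OCA+VIP and 96.8, 77.5 and 59.2 CPM in DMSO+VIP. The groups overlapped, DMSO+VIP library 1 was the highest, and the log2 fold change of -0.26 (SE 0.18, 95% interval -0.63 to 0.11) did not pass the test (edgeR adjusted p = 0.39). It was -0.07 with DMSO+VIP library 1 left out and -0.42 with DMSO+VIP library 3 left out. Of the calponin RNA per kb, with the related Cnn3 included, Cnn2 made up 25.4%, 25.9% and 23.7% in OCA+VIP and 33.0%, 33.1% and 25.9% in DMSO+VIP. These shares overlapped, since OCA+VIP library 2 lay just above DMSO+VIP library 3 (exact two-sided permutation p = 0.20, 0.30 adjusted over 3 shares).

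Tropomyosins wind along the actin filament and gate its access to myosin. Tpm1 (chromosome 9, 67022593 to 67049213) was the highest of the 10 members per kb, at 302 ± 38.9 CPM in OCA+VIP and 350 ± 29.6 CPM in DMSO+VIP per kb, and ranked 133 among the 11286 tested genes on that scale. Its CPM were 530, 437 and 564 in OCA+VIP libraries 1 to 3 and 536, 633 and 604 in DMSO+VIP libraries 1 to 3. The groups overlapped, and the log2 fold change of -0.22 (SE 0.14, 95% interval -0.51 to 0.06) did not pass the test (edgeR adjusted p = 0.32) and was -0.09 with OCA+VIP library 2 left out. Tpm1 makes many isoforms from alternative promoters and exons, and the counted transcript, as GENCODE has it, holds 26.9% of the gene's exon bases, so its muscle and non-muscle isoforms were not separated. Tpm2 (chromosome 4, 43513726 to 43523554) had 10.4, 10.0 and 13.6 CPM in OCA+VIP and 13.99, 22.2 and 19.7 CPM in DMSO+VIP. The groups did not overlap, but OCA+VIP library 3 and DMSO+VIP library 1 nearly met, and the log2 fold change of -0.73 (SE 0.35, 95% interval -1.45 to -0.01) did not pass after adjustment (edgeR adjusted p = 0.18). Tpm2 was 0.571% to 0.758% of the tropomyosin RNA per kb in OCA+VIP and 0.778% to 1.07% in DMSO+VIP. These shares use the deposited exon length of Tpm2, 2097 bases, where its transcript in GENCODE has 1164. Tpm1 made up 36.1%, 35.8% and 38.9% in OCA+VIP and 36.9%, 38.1% and 39.6% in DMSO+VIP, shares that overlapped (exact two-sided permutation p = 0.40, 0.40 adjusted over 3 shares). The non-muscle tropomyosins Tpm3 and Tpm4 supplied most of the rest.

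**Figure D2:**
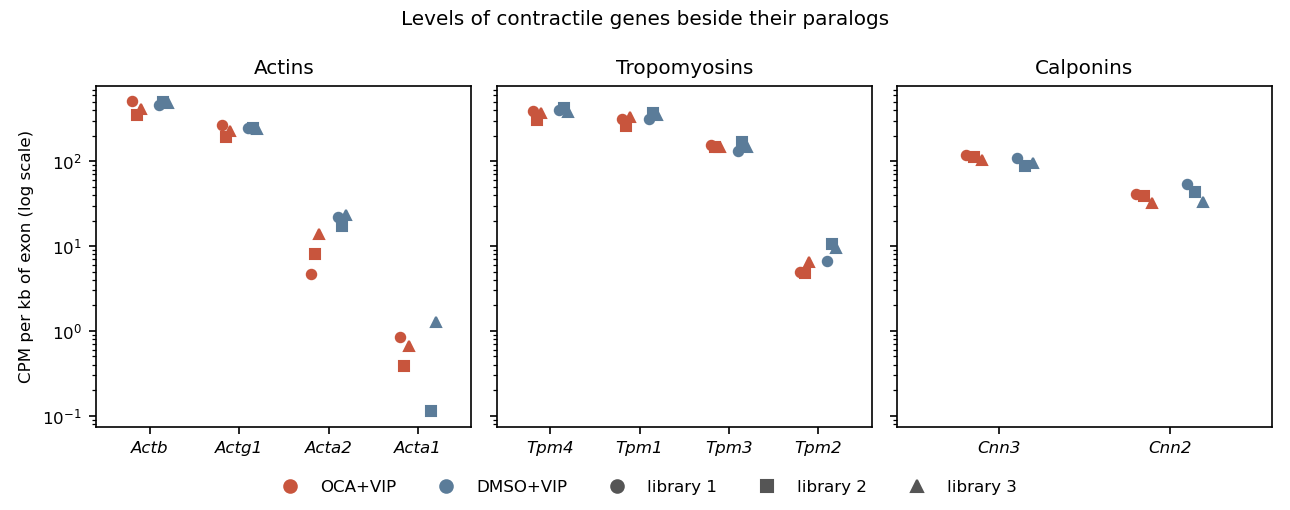
Level per kb of exon (CPM per kb, log axis) of actins, tropomyosins and calponins in each library, OCA+VIP left of DMSO+VIP for each gene. Points are libraries, and the value of 0 for Acta1 in DMSO+VIP library 1 cannot be drawn on this axis. Actg2, Actc1 and Cnn1 are not shown. Acta2 and Tpm2 lie far below the cytoplasmic actins and the other tropomyosins, and Acta2 is lower in every OCA+VIP library.

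Myl9, the regulatory light chain of smooth muscle and non-muscle myosin (chromosome 2, 156775464 to 156781657), was near the limit of detection. It had 6.5, 23 and 42 counts in OCA+VIP libraries 1 to 3 and 30.5, 6 and 18 counts in DMSO+VIP libraries 1 to 3, or 1.43, 2.31 and 7.24 CPM in OCA+VIP and 6.67, 2.11 and 4.82 CPM in DMSO+VIP. The libraries of each group spread more than the groups differed. Its log2 fold change was -0.34 (SE 0.81, 95% interval -2.03 to 1.35, edgeR adjusted p = 0.85) and 0.03 when either DMSO+VIP library 1 or OCA+VIP library 1 was left out, so no direction can be given. The paralog Myl12a, which encodes a regulatory light chain of non-muscle myosin, had 496 ± 98.9 CPM in OCA+VIP and 496 ± 26.8 CPM in DMSO+VIP (log2 fold change -0.01, edgeR adjusted p = 0.98).

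Des encodes desmin, the intermediate filament of muscle that is also a classical marker of rodent stellate cells (chromosome 1, 75360292 to 75368579). It had 103, 117 and 87.3 CPM in OCA+VIP libraries 1 to 3 and 151, 132 and 152 CPM in DMSO+VIP libraries 1 to 3. The groups did not overlap. Means were 103 ± 14.97 CPM in OCA+VIP and 145 ± 11.6 CPM in DMSO+VIP (SD, n = 3 each), for a log2 fold change of -0.52 (SE 0.13, 95% interval -0.80 to -0.24, edgeR adjusted p = 0.013). The call was lost on leaving out library 1 or 3 of DMSO+VIP (log2 fold changes -0.50 and -0.49, edgeR adjusted p = 0.058 and 0.057) and library 3 of OCA+VIP (-0.42, edgeR adjusted p = 0.10). The predicted gene Gm15179 overlaps 7.27% of the Des exon bases on the opposite strand.

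Vcl, the member that rose, encodes vinculin, which links actin filaments to integrin and cadherin adhesions (chromosome 14, 20929398 to 21033676). It had 219, 208 and 211 CPM in OCA+VIP libraries 1 to 3 and 146, 139 and 119 CPM in DMSO+VIP libraries 1 to 3. The OCA+VIP libraries lay close together, and all were above the DMSO+VIP libraries. Means were 213 ± 5.33 CPM in OCA+VIP and 135 ± 14.4 CPM in DMSO+VIP (SD, n = 3 each), a ratio of 1.58 and a log2 fold change of 0.64 (SE 0.13, 95% interval 0.39 to 0.90, edgeR adjusted p = 0.0014). The rise passed the test without any 1 library, with log2 fold changes of 0.56 to 0.70. GENCODE models of Ap3m1 on the opposite strand overlap 39.7% of the exon bases of the Vcl transcript, with the same limit as for Tagln. Ap3m1, an adaptor protein subunit gene, had 55.3 ± 1.46 CPM in OCA+VIP and 61.5 ± 20.3 CPM in DMSO+VIP (log2 fold change -0.18, edgeR adjusted p = 0.62). The counted Ap3m1 transcript (21033742 to 21052442) lies outside the counted Vcl transcript, so its CPM do not measure reads in the overlap.

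**Figure D3:**
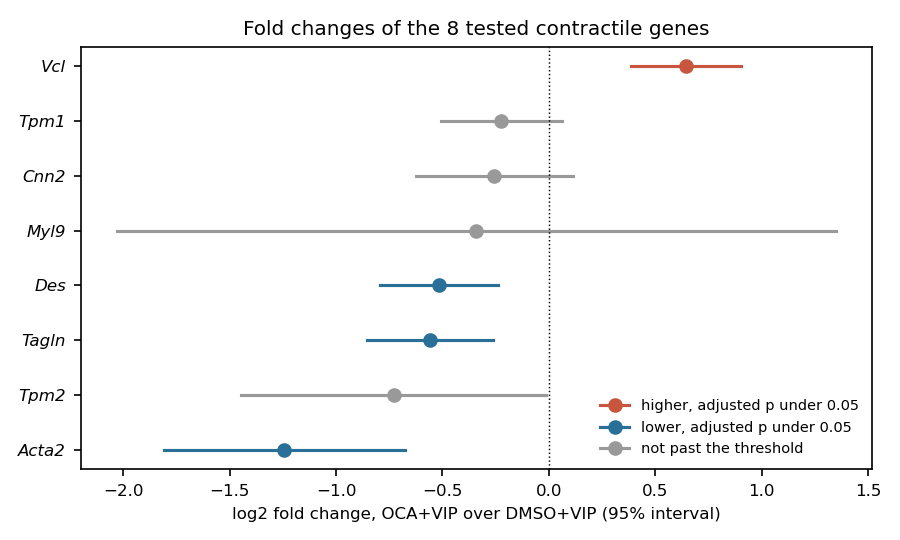
Log2 fold change of each tested contractile gene, OCA+VIP over DMSO+VIP, with its 95% interval from the edgeR fit. Vcl (0.64) lies above 0 and Acta2 (-1.24), Tagln (-0.56) and Des (-0.52) lie below it past the adjusted threshold, while the interval of Myl9 runs from -2.03 to 1.35.

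Ratios of 2 members within a library do not depend on how libraries are scaled. Per 100 counts of Tagln there were 55.6, 73.0 and 54.4 counts of Vcl in OCA+VIP libraries 1 to 3 and 28.4, 25.6 and 23.6 in DMSO+VIP libraries 1 to 3. Per 100 counts of Vcl there were 5.55, 9.92 and 16.9 counts of Acta2 in OCA+VIP and 38.2, 32.1 and 50 in DMSO+VIP. Both ratios separated the groups without overlap, by a factor of 2.36 for Vcl to Tagln. This had to follow from the CPM given above. There, Vcl was higher and Tagln and Acta2 were lower in every OCA+VIP library than in any DMSO+VIP library. Tagln to Tpm1 also did not overlap, at 74.2, 65.3 and 68.8 counts per 100 in OCA+VIP and 96.2, 85.6 and 83.2 in DMSO+VIP. Des to Tpm1 overlapped, at 19.5, 26.9 and 15.5 counts per 100 in OCA+VIP and 28.2, 20.8 and 25.2 in DMSO+VIP. Acta2 to Tagln also overlapped, at 3.09, 7.24 and 9.17 counts per 100 in OCA+VIP and 10.9, 8.21 and 11.8 in DMSO+VIP, so the larger fall of Acta2 was not separated from that of Tagln library by library. These ratios are given as descriptions, with no test.

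**Figure D4:**
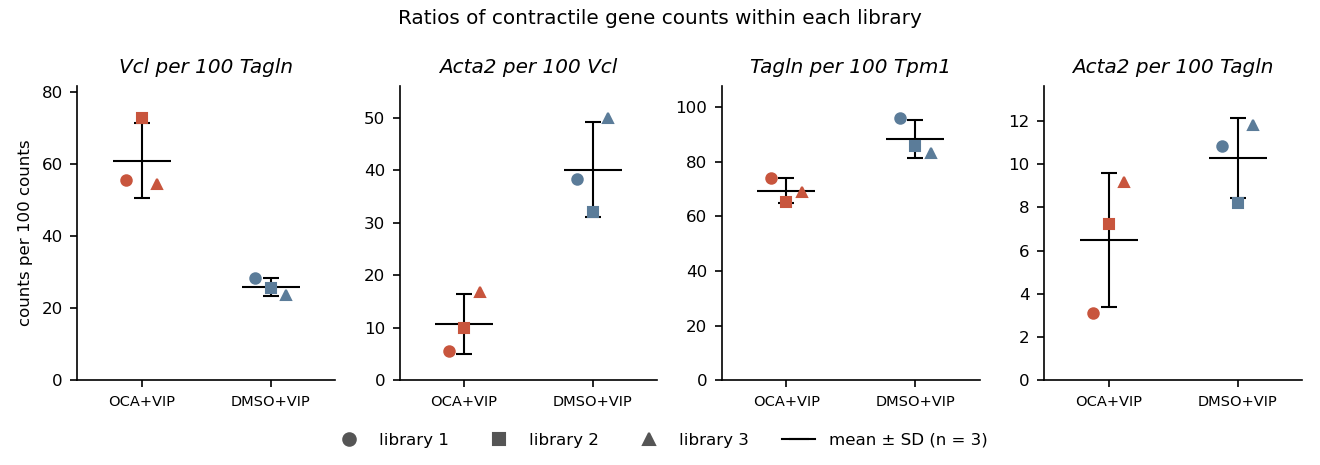
Counts of one contractile gene per 100 counts of another in each library, OCA+VIP left and DMSO+VIP right, with the mean and SD of 3 libraries and axes from 0. Vcl per 100 Tagln is 54.4 to 73.0 in OCA+VIP and 23.6 to 28.4 in DMSO+VIP, and of the 4 panels only that of Acta2 per 100 Tagln shows overlapping groups.

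Ordered by level per kb, the members ran in OCA+VIP as Tpm1 (302 ± 38.9 CPM per kb), Tagln (225 ± 38.4), Vcl (40.5 ± 1.02), Cnn2 (37.3 ± 4.59), Des (33.6 ± 4.90), Acta2 (8.90 ± 4.63), Tpm2 (5.40 ± 0.947) and Myl9 (3.4 ± 2.9). In DMSO+VIP the order was Tpm1 (350 ± 29.6), Tagln (329 ± 12.9), Des (47.5 ± 3.79), Cnn2 (43.9 ± 10.6), Vcl (25.7 ± 2.74), Acta2 (20.8 ± 3.02), Tpm2 (8.88 ± 2.0) and Myl9 (4.21 ± 2.13). Vcl stood above Cnn2 and Des in OCA+VIP and below both in DMSO+VIP. The order rests on deposited exon lengths. Among the members ordered here, these differ most from GENCODE's for Tpm2 (2097 against 1164 bases), Cnn2 (1773 against 2460) and Acta2 (2561 against 2035). The places and paralog shares of Tpm2, Cnn2 and Acta2 are therefore uncertain. Differences smaller than the larger SD of the pair were those of Vcl and Cnn2, of Cnn2 and Des, of Acta2 and Tpm2, and of Tpm2 and Myl9 in OCA+VIP, and those of Tpm1 and Tagln and of Des and Cnn2 in DMSO+VIP.

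The regulators and partners of these genes were read from 3 lists. Of 10 tested genes of SRF and its cofactors, 1 fell and 9 did not pass, with a median log2 fold change of 0.30. That is close to the 11.8% called over all tested genes. Srf itself had 68.9, 99.1 and 86.6 CPM in OCA+VIP and 73.8, 57.9 and 56.7 CPM in DMSO+VIP, which overlapped (log2 fold change 0.41, SE 0.16, edgeR adjusted p = 0.11). The coactivator genes Mrtfa and Mrtfb, listed as Mkl1 and Mkl2, had log2 fold changes of 0.40 and -0.38 (edgeR adjusted p = 0.30 and 0.39), and Myocd, the smooth muscle coactivator myocardin, was too low to test. The member of this list that fell was Fhl1, a LIM-only protein, with 44.1 ± 19.1 CPM in OCA+VIP and 136 ± 9.72 CPM in DMSO+VIP (log2 fold change -1.63, edgeR adjusted p = 1.7e-05). The ternary complex factor gene Elk1 (-0.62) and the LIM-only gene Fhl2 (-0.71) did not pass the test (edgeR adjusted p = 0.065 and 0.18). Elk1 passed it with OCA+VIP library 2 left out (-0.91, edgeR adjusted p = 0.0092), and Fhl2 was at -0.39 with DMSO+VIP library 3 left out.

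Of 18 tested genes of myosin, actin and their regulators, 5 fell, 1 rose and 12 did not pass, with a median of -0.20, where 6.04% of all tested genes fell and 5.72% rose. Synm, which encodes synemin, a partner of desmin, had 8.99 ± 2.66 CPM in OCA+VIP and 40.2 ± 11.9 CPM in DMSO+VIP, or -2.17 as log2 fold change (SE 0.30, edgeR adjusted p = 4.3e-05). Myh9, a non-muscle myosin heavy chain, and Tagln2, the paralog of Tagln, also fell (-0.60 and -0.56), as did Mylk, the myosin light chain kinase, and Cald1, caldesmon (-0.97 and -0.51). Smtn, smoothelin, rose, with 231 ± 13.6 CPM in OCA+VIP and 142 ± 11.7 CPM in DMSO+VIP (log2 fold change 0.69, edgeR adjusted p = 0.00070), and 14.3% of its exon bases are shared with Gm11946 on the opposite strand.

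Of 21 tested genes of focal adhesions and intermediate filaments, 6 fell, 2 rose and 13 did not pass, with a median of -0.27, against the same 6.04% and 5.72% over all tested genes. The adhesion genes that rose, as Vcl did, were Zyx, zyxin, at 143 ± 21.1 CPM in OCA+VIP and 86.9 ± 11.1 CPM in DMSO+VIP (log2 fold change 0.70, edgeR adjusted p = 0.0028), and Flnc, filamin C (0.94, edgeR adjusted p = 0.0084). Tln1, the main talin and the partner that binds vinculin, did not pass the test (0.23, edgeR adjusted p = 0.24), and its paralog Tln2 fell (-1.39, edgeR adjusted p = 0.00026). Vim, the intermediate filament vimentin, had 543 ± 23.7 CPM in OCA+VIP and 911 ± 58.1 CPM in DMSO+VIP (log2 fold change -0.76, edgeR adjusted p = 0.00027). The intermediate filament gene Nes, nestin, did not pass the test, with 217 ± 26.5 CPM in OCA+VIP and 209.6 ± 16.6 CPM in DMSO+VIP (log2 fold change 0.03, edgeR adjusted p = 0.91). The other falls were those of Nexn, Actn1, Fermt2 and Flna (-1.62, -0.43, -0.43 and -0.41). Mylk, Cald1, Nexn, Actn1, Fermt2, Flna, Tln1, Nes, Mrtfa, Mrtfb, Myl12a, Actb and Actg1 were named after their values were seen. Of the 15 partner genes called, 7 lost the call without 1 or more of the 6 libraries: Mylk, Cald1, Actn1, Flna, Flnc, Fermt2 and Nexn, with edgeR adjusted p up to 0.16.

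**Figure D5:**
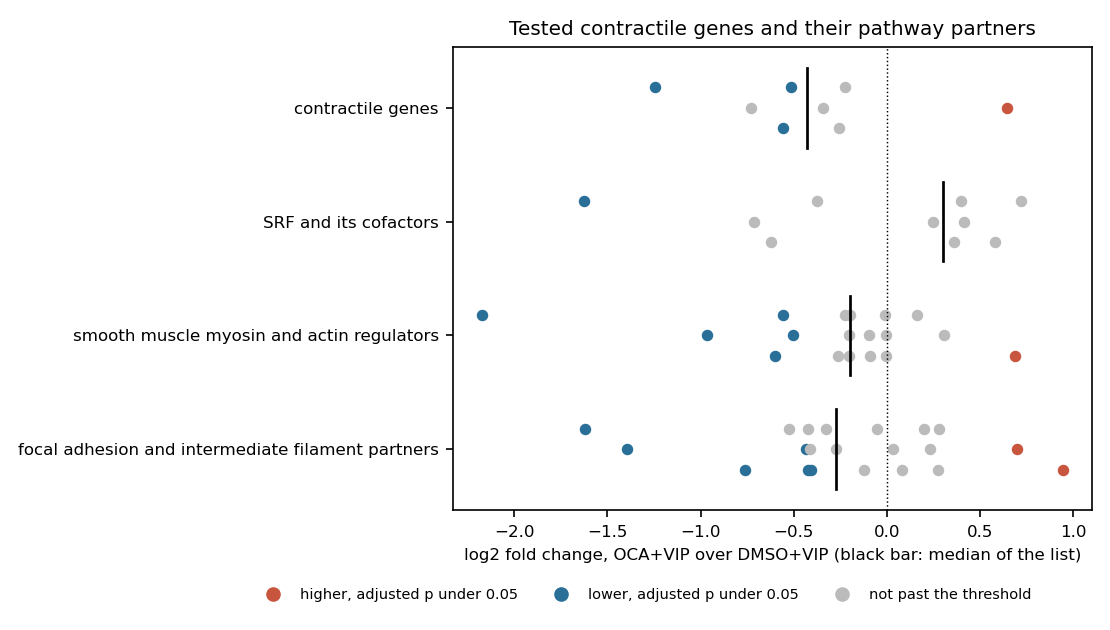
Log2 fold changes (OCA+VIP over DMSO+VIP) of the tested contractile genes and of the tested genes in 3 lists of regulators and partners, one point per gene. Colour shows the direction of genes past the adjusted threshold, and the black bar is the median of each list, -0.43 for the contractile genes and 0.30 for SRF and its cofactors.

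The profile of Acta2 over the 6 libraries, as log2 CPM centred on its own mean, was compared with those of the other genes at 10 CPM or more, 9033 in all. The nearest were Ttyh2, Fance, Zfp358, Bcat1 and Zfp930, at root mean square distances of 0.13 to 0.24 on the log2 scale. Fance, for example, had 8.71, 17.8 and 19.0 CPM in OCA+VIP and 37.4, 30.8 and 40.3 CPM in DMSO+VIP. The low value in OCA+VIP library 1, shared with Acta2, follows from choosing genes by this distance. Among the contractile genes the nearest to Acta2 was Tpm2, at a distance of 0.55 and rank 485, and the farthest was Vcl, at 1.11 and rank 8461. For Vcl the nearest profiles were those of Cwc25, Rcan1, Stmn1, Cbfb and Rbm18, at distances of 0.03 to 0.06. Distances depend on the size of the change and on counting error, which is larger for genes of low CPM.

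Markers of some other cells also differed between the groups. The summed level of 12 hepatocyte markers was 239 to 402 CPM in OCA+VIP and 71.7 to 78.7 CPM in DMSO+VIP. Of the 9 tested, 8 were higher, and Tat was at 0 in all libraries. Over all tested genes, 5.72% were called higher and 6.04% lower. The summed level of 9 markers of portal fibroblasts and mesothelium was 11.2 to 15.6 CPM in OCA+VIP and 34.2 to 59.8 CPM in DMSO+VIP. Of these 9, only Fbln2 could be tested, and it fell (log2 fold change -2.04, edgeR adjusted p = 5.7e-05), while the mesothelial markers Msln, Upk3b and Upk1b and the portal fibroblast marker Thy1 were at 0 in all libraries. The stellate cell markers split, with 5 of 14 higher and 3 lower, against the same 5.72% and 6.04%. Those that rose were Colec11 (log2 fold change 2.17), Ngfr (1.15), Dcn (0.98), Ecm1 (0.87) and Pdgfra (0.71). Those that fell were Hgf (-2.11), Col1a1 (-1.79) and Des (-0.52). Summed markers of sinusoidal endothelium were at 9.37 to 20.1 CPM in OCA+VIP and 4.15 to 9.84 CPM in DMSO+VIP, with Lyve1 at 0. These sums overlapped, and none of the 3 genes tested was called. Those of Kupffer cells were at 31.0 to 44.2 CPM in OCA+VIP and 15.3 to 47.3 CPM in DMSO+VIP, with Vsig4, Ptprc and Timd4 at 0. They overlapped too, and neither of the 2 genes tested was called. Those of cholangiocytes were at 18.6 to 21.6 CPM in OCA+VIP and 8.45 to 14.9 CPM in DMSO+VIP, with Krt7 at 0. These cholangiocyte sums did not overlap, but neither of the 2 genes tested was called. Of 6 lymphocyte markers 5 were at 0 in all libraries. The sum, from Cd79a alone, was 3.67 to 8.35 CPM in OCA+VIP and 0 in DMSO+VIP. Cd79a, the only lymphocyte marker tested, was called higher. The part of these marker differences in the changes of Acta2, Tagln, Des and Vcl was not tested.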

How the data were processed

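The 6 libraries of stellate cell polyadenylated RNA were made with the NEBNext Ultra RNA kit, per the labels' protocols. The authors deposited 1 table of expected counts per gene over the exons of 1 RefSeq transcript, not adjusted for library size and in steps of 0.5; its other columns give exon length and genomic copies. The submitters' processing notes name mm10, STAR, HOMER and DESeq2, with no role or version, and strand use is not given in the sources used here. Columns were assigned to groups by name, while column numbers and title letters could not be linked.

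Rounded counts went into edgeR 4.0.16 under R 4.3.3 (TMM, filterByExpr with minimum count 10 and minimum total 15, quasi-likelihood F test, two-sided, 4 residual degrees of freedom, Benjamini-Hochberg adjustment over 11286 genes). On simulated data for this comparison with 11286 genes, 74 of 100 2-fold and all 100 4-fold changes were recovered with the right sign. Changes were set only in genes averaging 5 CPM or more. All genes shared 1 dispersion and low counts had no steps, so these rates do not cover genes of low CPM. CPM are shares of the column total, per kb where genes are compared, with SD over 3 libraries. RLE, upper-quartile and library-size scaling, 2 other filters, DESeq2 1.42.0, limma-voom 3.58.1, a replicate block, thresholds of 0.01 and 0.1, counts divided by 6 and leaving out each library were alternatives. Exon overlaps and 50-base matches used GENCODE on GRCm38 (mm10); promoters were RefSeq's. Members, lists and named genes were chosen with earlier results of these data known. Named genes are the 10 members, in each of 3 lists the 4 genes with the smallest p among those averaging 1 CPM or more, and the 5 nearest profiles to Acta2 and to Vcl. The results of 1 further list are not reported here.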

Additional observations from a re-analysis of the deposited data

How the results depend on the processing

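The rise of Vcl and the fall of Acta2 kept direction and passed the 0.05 threshold under every alternative run, with log2 fold changes of 0.56 to 0.70 and -1.70 to -0.98. Tagln and Des kept their direction in every alternative (-0.67 to -0.39 and -0.58 to -0.42) and lost the call only at a threshold of 0.01 and without the libraries named with them. Tpm1, Tpm2 and Cnn2 passed under none. Myl9 reversed on leaving out DMSO+VIP library 1 (0.03) or OCA+VIP library 1 (0.027), within a range of -1.32 to 0.027 over the libraries left out, and was not tested with counts divided by 6. The number of members lower, 3, was 1 at a threshold of 0.01 and 1 to 3 without 1 library; without DMSO+VIP library 1 only Acta2 remained called lower. The ratio of summed member levels, OCA+VIP over DMSO+VIP, was 0.832, 0.826 on the TMM library size and 0.812 without Tpm1. Leaving out 1 library, the difference in Acta2 share, -1.38 percentage points, was -1.74 to -0.98.

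Of the partner lists, SRF and its cofactors had 1 call, and 2 with no filter, under the replicate block or at a threshold of 0.1, 3 by DESeq2, and 1 to 2 without 1 library. Elk1 passed with no filter, DESeq2 and the replicate block (adjusted p = 0.041, 0.021 and 0.044) and Srf with DESeq2 (0.043). The focal adhesion list had 8 calls, 5 under the replicate block, 4 at a threshold of 0.01 and 4 to 10 without 1 library. Same-numbered columns did not deviate together (correlations -0.04, -0.05 and 0.03). With 3 libraries per group, this cannot decide whether the numbers pair the samples. The share of all tested genes called moved with these settings as well: 11.8% (1328 genes) by edgeR, 9.91% (1118) under the replicate block, 10.4% with no filter, 18.3% (2244) by DESeq2, 5.74% at a threshold of 0.01, 17.1% at 0.1 and 6.36% to 12.8% (737 to 1478) without 1 library. Depth limits Cnn1, Actg2 and Myl9, and the cause of the other changes was not tested.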
